A study of Mus musculus with 6 samples.

Results

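The genes described here are 57 DNA repair genes of the mouse, among them the Fanconi anemia genes, out of the 34745 rows of the deposited gene table. They were chosen by gene name, through symbols that begin with or equal Fanc, Brca, Rad50 to Rad54, Xrcc, Msh, Mlh, Parp and a set of single names such as Atm, Blm and Polq. RNA of RAW 264.7 cells, an established mouse macrophage line, was sequenced in 6 libraries. The DMSO group, 3 libraries, received the solvent, and the BPAP group, 3 libraries, received bisphenol AP, a bisphenol with a phenyl group on its bridging carbon. The sources used here do not give the dose, the exposure time or the strand setting. Separate cultures are not mentioned for the 3 libraries of a group, and p-values therefore cover the library-to-library spread alone, which may be technical.

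Cells repair DNA through several routes. Strands that are covalently crosslinked are handled by the Fanconi pathway, in which a core complex attaches ubiquitin to the FANCD2-FANCI pair, and the resulting breaks are repaired by homologous recombination, in which BRCA2 and PALB2 act on resected DNA. Breaks can also be rejoined end to end, mispaired bases are removed by the MutS and MutL proteins, and damaged bases are bypassed by specialised polymerases. Homologous recombination works mainly during and after DNA copying, and many of its genes are known to be transcribed most in cycling cells.

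Library totals ran from 11084705 to 13806559 counts, and 3 counts, the limit that a count of 0 allows, equal 0.217 to 0.271 CPM (counts scaled to the library total). Of 10 macrophage markers, Mertk had no count in any library, and the summed level of the list was 4680 to 5091 CPM in DMSO and 4983 to 5437 CPM in BPAP, with 5 of the 9 tested markers higher and 2 lower. Marker lists of epithelial cells, fibroblasts, T cells, B cells, endothelial cells and neutrophils summed to at most 1.09 CPM each in any library. Levels below are TMM-normalised CPM, and differences are log2 fold changes, BPAP minus DMSO, from the quasi-likelihood test of edgeR, with p-values adjusted after Benjamini and Hochberg over the 11711 genes tested and a threshold of 0.05. In bulk libraries such as these, fewer cells in the state that expresses a gene and less RNA of that gene per cell cannot be told apart.

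The repair genes were lower in BPAP more often than higher. Of the 57 genes, 55 passed the expression filter, 23 fell, 2 rose and 30 did not pass the test, beside 31.7% of all genes tested that passed in either direction. The share that fell was 41.8%, beside 15.5% of all genes tested, and the share that rose was 3.64%, beside 16.2%. Their median log2 fold change was -0.35, beside 0.02 over all genes tested. The values of the BPAP and DMSO libraries did not overlap for 38 of the 55 genes, 33 of them with BPAP lower, beside 49.0% and 23.8% of all genes. Together the 57 genes took 0.204, 0.214 and 0.217% of all counts in DMSO and 0.164, 0.150 and 0.170% in BPAP, so the groups did not overlap. Polq (chr16:37011786-37095417), Fancm (chr12:65075606-65132058) and Atr (chr9:95857597-95951644), all on the plus strand of GRCm38, fell more than 2-fold, as did 1.29% of all genes tested. The genes that fell include all 4 BRCA mediators, both members of the FANCD2-FANCI pair and the RecQ helicase genes Blm and Wrn. None of the 5 PARP and single-strand break repair genes matched by name passed the test, though 3 of them lay lower in BPAP without overlap.

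Changes across all genes of these libraries moved with transcript length, longer genes being lower in BPAP, and many of the repair genes are long. The changes of genes that passed are therefore also given after a trend on exon length and GC content had been removed from the log2 values. With that trend removed, 18 of the 55 genes fell, beside 11.2% of all genes, and 1 rose, beside 11.9%, and their median was -0.31. All 18 were among the 23. The 5 that no longer passed were Palb2, Fanci, Fanca, Wrn and Exo1.

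**Figure D1:**
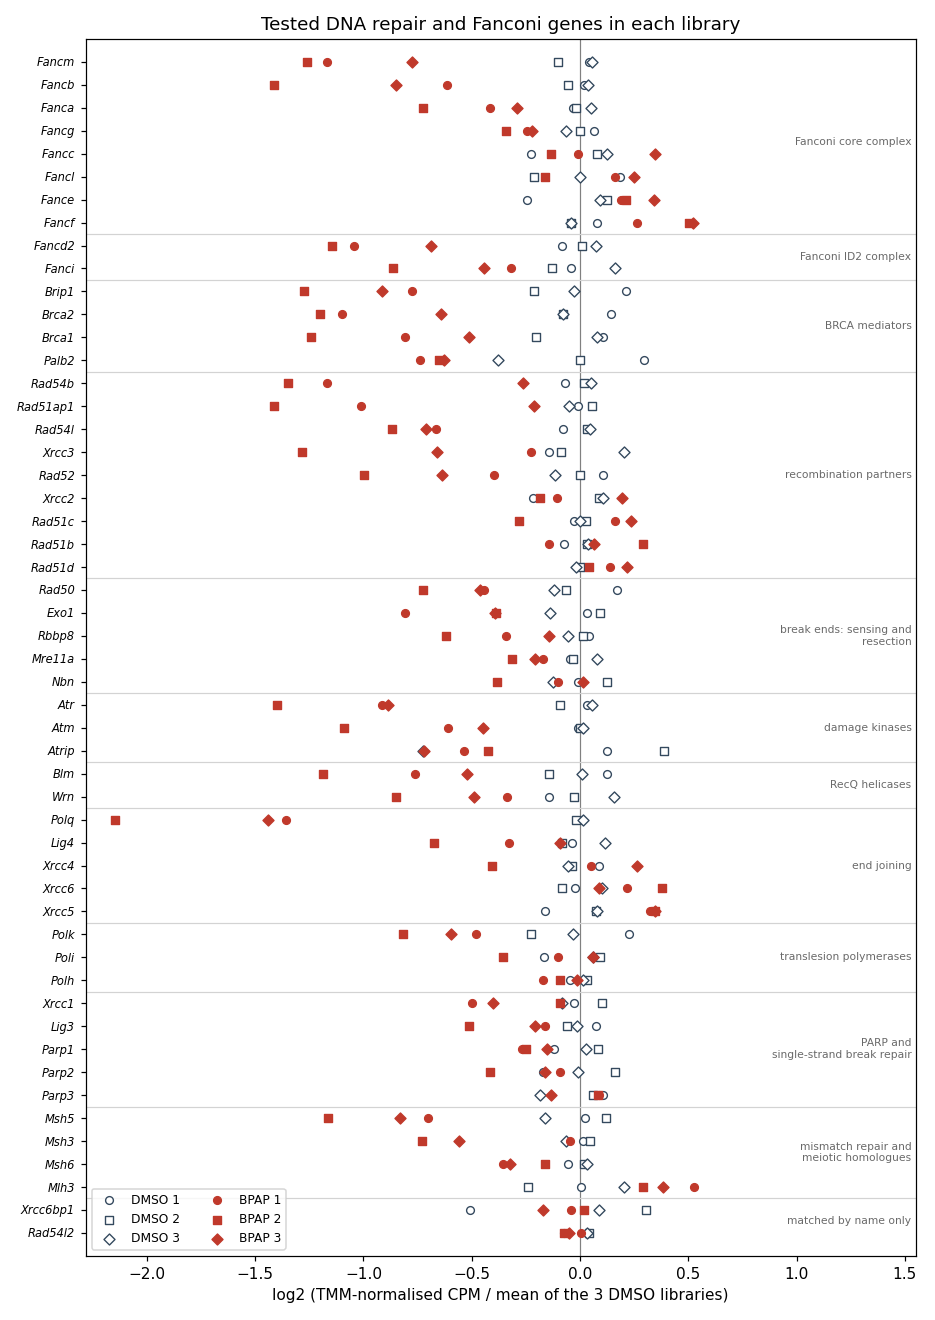
Level of 52 tested repair genes in each library, as the log2 difference from the mean of the DMSO libraries, with 1 gene per line grouped by role, 1 marker shape per replicate, open for DMSO and filled for BPAP. The genes that fell are low in all 3 BPAP libraries, and lowest in the BPAP 2 library for 19 of the 22 shown.

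Many recombination genes are known to be transcribed with the cell cycle, and short words known for cell cycle regulators were therefore looked for in promoters. Promoters of 3 genes that fell are shown as examples picked because they hold such a word. E2F words stood in 3 of the 19 windows of genes that fell and cell cycle homology words in 2 of 19. Both kinds of word are listed in the next paragraph. The RefSeq table (GRCm38.p6) holds windows from 250 bases before to 50 after the start of 42 of the 57 genes, 48 windows in all. Those with no window include Exo1, Fancd2, Nbn, Poli, Rad50, Rad51d, Rad54b, Rad54l2, Rbbp8, Wrn, Xrcc2 and Xrcc6bp1. The stretches printed run 5′ to 3′ on the gene's strand up to the base before the start, whole for Polq and Brca2 and only the 77 bases nearest the start for Msh5. Capitals mark every whole word searched for, as listed in the next paragraph. Polq (chr16:37011536-37011785, plus strand) fell the most and holds TTCAAA, the reverse complement of TTTGAA, beginning 242 bases before the start. A second such word, TTTGAA, lies across the start of Polq, and only its first 3 bases end the printed stretch. Brca2 (chr5:150522371-150522620, plus strand) and Msh5 (chr17:35046623-35046699, minus strand) both hold GCGGGAAA, the reverse complement of TTTCCCGC, beginning 168 and 65 bases before the start. Msh5 also holds ATTGG, the reverse complement of CCAAT, beginning 48 bases before the start. The deposited locus of Msh5 has its 5′ end at base 35046745, upstream of this RefSeq start. The printed Msh5 stretch therefore lies inside the deposited span of the gene.
Polq: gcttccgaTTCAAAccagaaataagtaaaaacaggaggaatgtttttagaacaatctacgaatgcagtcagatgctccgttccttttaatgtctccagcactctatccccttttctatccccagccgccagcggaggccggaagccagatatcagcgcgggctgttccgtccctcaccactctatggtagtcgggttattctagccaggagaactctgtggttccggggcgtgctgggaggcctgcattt
Brca2: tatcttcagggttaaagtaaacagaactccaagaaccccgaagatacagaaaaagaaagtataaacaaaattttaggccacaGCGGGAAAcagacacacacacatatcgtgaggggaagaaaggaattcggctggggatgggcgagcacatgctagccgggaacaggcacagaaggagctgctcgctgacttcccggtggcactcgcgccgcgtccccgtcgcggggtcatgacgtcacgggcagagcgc
Msh5: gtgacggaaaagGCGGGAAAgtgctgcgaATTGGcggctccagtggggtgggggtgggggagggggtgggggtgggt

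The words searched on both strands were TTTCCCGC, TTTCGCGC, TTTGCCGC and TTTGGCGC for E2F factors, TTTGAA and TTCGAA for the cell cycle homology region, CCAAT for the CCAAT box and GGGCGG for the GC box. An E2F word stood in 8 of the 48 windows of the repair genes (16.7%), beside 4.11% of windows of all genes tested and 2.26% of all 32851 windows. It was in 3 of the 19 windows of genes that fell (15.8%) and in 5 of the 27 windows of tested genes that did not fall (18.5%). The genes with an E2F word were Brca2, Msh5 and Msh6, which fell, and Fancg, Msh3, Rad51c and Xrcc6, which did not pass the test. The cell cycle homology word was in 8.33% of the windows, beside 14.1% of those of all genes tested and 19.2% of all windows, and in 10.5% of windows of genes that fell and 3.70% of those that did not. CCAAT was in 56.3%, beside 38.2% and 37.4%, and in 63.2% and 55.6% of windows of genes that fell and did not fall. The GC box was in 64.6%, beside 62.6% and 35.7%, and in 78.9% and 55.6% of windows of genes that fell and did not fall. These splits were not tested. A match describes letters in a window and is not a site of binding.

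Of the Fanconi core complex, the ubiquitin ligase of the pathway, 3 of 8 genes fell and 5 did not pass the test. Fancm, the translocase that brings the core complex to stalled forks, stood at 13.8, 12.4 and 13.9 CPM in DMSO and at 5.94, 5.58 and 7.79 CPM in BPAP. All 3 BPAP libraries lay below every DMSO library, and Fancm fell 2.07-fold (log2 fold change -1.05, SE 0.16, adjusted p = 0.00178, and -0.81 with the trend removed). Fancb, a subunit of the catalytic part of the complex, was rare, at 4.04, 3.83 and 4.09 CPM in DMSO and at 2.60, 1.498 and 2.21 CPM in BPAP. The groups did not overlap, and it fell 1.89-fold (log2 fold change -0.92, SE 0.24, adjusted p = 0.0162, and -0.95 with the trend removed). Fanca, a scaffold subunit, was at 11.6, 11.7 and 12.3 CPM in DMSO and at 8.87, 7.16 and 9.68 CPM in BPAP. It fell 1.38-fold (log2 fold change -0.46, SE 0.15, adjusted p = 0.0402), but not with the length and GC trend removed (adjusted p = 0.138). Its adjusted p was 0.0663 without the DMSO 1 library, 0.0947 without DMSO 2, 0.113 without DMSO 3, 0.072 without BPAP 1 and 0.0901 without BPAP 2. The remaining core genes did not pass, at log2 fold changes of -0.27 for Fancg, 0.43 for Fancf, 0.25 for Fance, 0.10 for Fancl, which encodes the ligase subunit itself, and 0.08 for Fancc.

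Both genes of the pair that the core complex modifies fell. Fancd2 stood at 39.6, 42.2 and 44.2 CPM in DMSO and at 20.3, 19.0 and 26.1 CPM in BPAP. The DMSO libraries lay close together, far above the BPAP libraries, and Fancd2 fell 1.93-fold (log2 fold change -0.95, SE 0.13, adjusted p = 0.00117; -0.80 with the trend removed). Fanci stood at 13.2, 12.4 and 15.2 CPM in DMSO and at 10.9, 7.49 and 10.0 CPM in BPAP. The groups were separate by a smaller margin, and Fanci fell 1.44-fold (log2 fold change -0.53, SE 0.17, adjusted p = 0.0364; 0.063 with the trend removed). Its adjusted p was 0.0655 without DMSO 1, 0.0583 without DMSO 2, 0.129 without DMSO 3, 0.0802 without BPAP 2 and 0.0557 without BPAP 3.

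All 4 BRCA mediators fell, and their median log2 fold change was -0.89. Brca1, whose product promotes resection and PALB2 recruitment, was at 60.2, 48.6 and 59.0 CPM in DMSO and at 31.9, 23.6 and 39.2 CPM in BPAP. It fell 1.77-fold with no overlap of the groups (log2 fold change -0.82, SE 0.17, adjusted p = 0.00694, and -0.66 with the trend removed). Brca2, a recombination mediator, was at 23.9, 20.5 and 20.5 CPM in DMSO and at 10.1, 9.40 and 13.9 CPM in BPAP. It fell 1.94-fold, also without overlap (log2 fold change -0.96, SE 0.16, adjusted p = 0.00247; -0.58 with the trend removed, adjusted p = 0.0164). Brip1, a helicase that binds BRCA1, was at 21.7, 16.1 and 18.3 CPM in DMSO and at 10.9, 7.74 and 9.92 CPM in BPAP. Every BPAP library was below every DMSO library, and Brip1 fell 1.96-fold (log2 fold change -0.97, SE 0.17, adjusted p = 0.00273, and -0.74 with the trend removed). Palb2, the bridge between BRCA1 and BRCA2, varied more among the DMSO libraries, at 16.5, 13.5 and 10.4 CPM, than among the BPAP libraries, at 8.06, 8.57 and 8.69 CPM. It fell 1.59-fold (log2 fold change -0.67, SE 0.18, adjusted p = 0.0187), but its adjusted p was 0.0544 with the trend removed, 0.0589 without DMSO 1, 0.0535 without DMSO 2 and 0.0503 without BPAP 1.

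**Figure D2:**
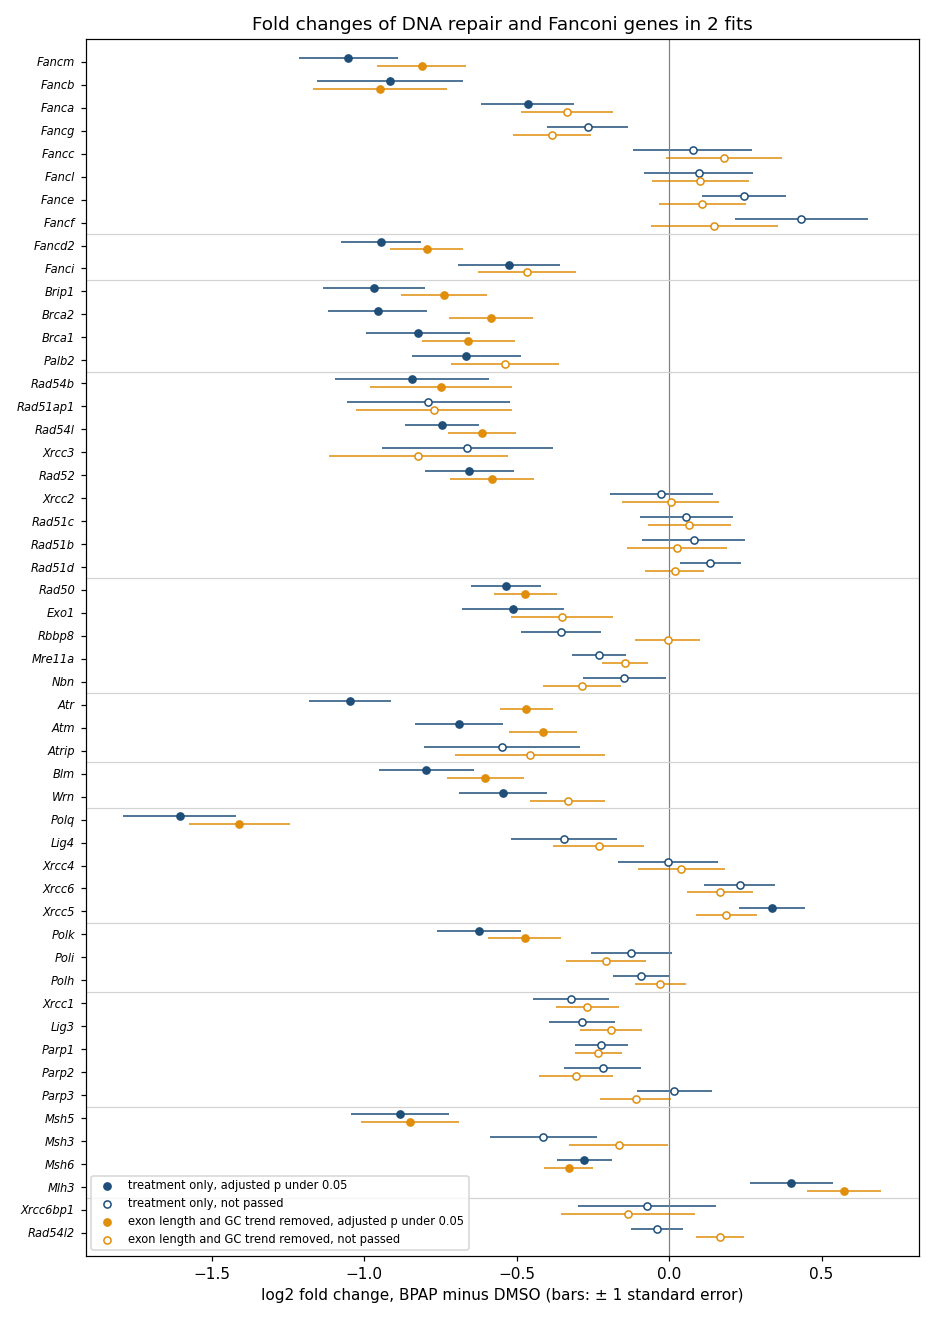
Log2 fold change, BPAP minus DMSO, of 52 tested repair genes by role, with bars of 1 SE. Blue is the fit with treatment only and orange the one after removal of the trend; filled points passed the threshold of edgeR's quasi-likelihood test, and Polq lies farthest below 0, at -1.61 and -1.41.

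Among the recombination genes that act with or after these mediators, Rad54l, Rad52 and Rad54b fell. Rad54l, a translocase that acts in strand invasion, was at 18.5, 19.9 and 20.1 CPM in DMSO and at 12.3, 10.7 and 11.9 CPM in BPAP. Both groups were tight, and it fell 1.68-fold (log2 fold change -0.75, SE 0.12, adjusted p = 0.00225, and -0.61 with the trend removed). Its values are uncertain, because 15.4% of its exon bases overlap Lrrc41 on the opposite strand. Lrrc41 had 12031 counts in all and Rad54l 1164. Rad52, an annealing factor, was at 49.8, 46.4 and 42.8 CPM in DMSO and at 35.2, 23.2 and 29.8 CPM in BPAP. It fell 1.58-fold without overlap (log2 fold change -0.66, SE 0.15, adjusted p = 0.00819, and -0.58 with the trend removed). Rad54b, a relative of Rad54l, was at 20.4, 21.7 and 22.1 CPM in DMSO and at 9.52, 8.41 and 17.8 CPM in BPAP. The BPAP 3 library lay near the DMSO range, and Rad54b fell 1.80-fold (log2 fold change -0.84, SE 0.25, adjusted p = 0.0346, and -0.75 with the trend removed). Its adjusted p rose to between 0.0749 and 0.0965 when any of DMSO 1, DMSO 2, DMSO 3, BPAP 1 or BPAP 2 was left out, and was 0.071 with coding length removed as well as exon length and GC, an alternative chosen after seeing the data.

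Rad51ap1, which encodes a recombination accessory protein, showed the same spread among BPAP libraries as Rad54b. It was at 24.5, 25.6 and 23.8 CPM in DMSO and at 12.2, 9.24 and 21.2 CPM in BPAP. BPAP 3 was again near the DMSO range, and Rad51ap1 did not pass the test (log2 fold change -0.79, SE 0.27, adjusted p = 0.0565). Without BPAP 3 its log2 fold change was -1.20 and its adjusted p 0.00187, and with all libraries it passed under DESeq2 (adjusted p = 0.00835), limma-voom (0.0238) and limma-trend (0.0308). Rad51b, Rad51c, Rad51d, Xrcc2 and Xrcc3, whose products form complexes known in recombination, did not pass, at log2 fold changes of 0.08 for Rad51b, 0.06 for Rad51c, 0.13 for Rad51d, -0.03 for Xrcc2 and -0.66 for Xrcc3. Xrcc3 passed only when BPAP 1 was left out (log2 fold change -0.94, adjusted p = 0.045). Rad51ap2 had no count in any library.

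Among 5 genes that sense and trim break ends, 2 fell and 3 did not pass. Rad50, the ATPase of the MRN complex, was at 82.2, 69.8 and 67.2 CPM in DMSO and at 53.8, 44.3 and 52.99 CPM in BPAP. It fell 1.45-fold with separate groups (log2 fold change -0.54, SE 0.11, adjusted p = 0.00695, and -0.47 with the trend removed). Its complex partners Mre11a, the nuclease, and Nbn did not pass, at -0.23 (adjusted p = 0.0722) and -0.15 (adjusted p = 0.434). Exo1, a long-range resection nuclease, was at 9.91, 10.3 and 8.80 CPM in DMSO and at 5.53, 7.41 and 7.38 CPM in BPAP. It fell 1.43-fold (log2 fold change -0.51, SE 0.17, adjusted p = 0.0394), but not with the trend removed (adjusted p = 0.156), and its adjusted p was 0.051 to 0.126 when any of DMSO 1, DMSO 2, DMSO 3, BPAP 1 or BPAP 3 was left out. Rbbp8, which encodes the resection factor CtIP, was at -0.35 (adjusted p = 0.0608), and passed without BPAP 3 (-0.47, adjusted p = 0.0298).

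Both kinase genes that start damage signalling fell. Atr, the kinase activated at single-stranded DNA, stood at 88.9, 81.3 and 90.3 CPM in DMSO and at 46.1, 32.9 and 47.0 CPM in BPAP. The lowest DMSO library was far above the highest BPAP library, and Atr fell 2.07-fold (log2 fold change -1.05, SE 0.13, adjusted p = 0.000803). It has the longest exons of the repair genes, 23629 bases, and its log2 fold change was -0.47 with the trend removed (adjusted p = 0.00621). Atm, the kinase activated at double-strand breaks, was at 76.5, 76.8 and 77.6 CPM in DMSO and at 50.5, 36.2 and 56.4 CPM in BPAP. The DMSO libraries were nearly equal, the BPAP libraries were spread out below them, and Atm fell 1.61-fold (log2 fold change -0.69, SE 0.14, adjusted p = 0.00647; -0.42 with the trend removed, adjusted p = 0.0262). When coding length was removed as well, Atm did not pass (log2 fold change -0.29, adjusted p = 0.096). Atrip, the partner of ATR, was at -0.55 (adjusted p = 0.129), and passed without DMSO 3 (-0.82, adjusted p = 0.0148).

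Both RecQ helicase genes that the name rule matches, Blm and Wrn, fell. Of the other RecQ genes, counted below under homologous recombination, Recql fell (log2 fold change -0.59), Recql4 rose (0.48) and Recql5 did not pass (0.04). With the trend removed Recql did not pass (adjusted p = 0.0687) and Recql4 did (adjusted p = 0.04998). Blm, which unwinds recombination intermediates, was at 105.7, 87.7 and 97.6 CPM in DMSO and at 57.2, 42.6 and 67.6 CPM in BPAP. It fell 1.74-fold without overlap (log2 fold change -0.80, SE 0.15, adjusted p = 0.00521, and -0.60 with the trend removed). Wrn, the Werner syndrome helicase, was at 31.1, 33.7 and 38.3 CPM in DMSO and at 27.2, 19.1 and 24.5 CPM in BPAP. It fell 1.46-fold (log2 fold change -0.54, SE 0.14, adjusted p = 0.0170), but not with the trend removed (adjusted p = 0.0779) or without DMSO 3 (adjusted p = 0.0686).

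Of the 5 end joining genes matched by name, 1 fell, 1 rose and 3 did not pass. Of all genes tested, 15.5% fell and 16.2% rose. Polq, the polymerase of microhomology-mediated joining, stood at 22.6, 22.2 and 22.8 CPM in DMSO and at 8.79, 5.08 and 8.28 CPM in BPAP. The DMSO libraries were nearly equal, and the highest BPAP library was far below them. Polq fell 3.04-fold (log2 fold change -1.61, SE 0.18, adjusted p = 0.000545; -1.41 with the trend removed, adjusted p = 0.00131). Xrcc5, which encodes the Ku80 subunit that caps broken ends, was at 20.2, 23.8 and 23.9 CPM in DMSO and at 28.3, 28.8 and 28.7 CPM in BPAP. The BPAP libraries were nearly equal and above all DMSO libraries, and Xrcc5 rose 1.26-fold (log2 0.34, SE 0.11, adjusted p = 0.0387). It did not pass with the trend removed (log2 fold change 0.19, adjusted p = 0.203) or when any 1 of the 6 libraries was left out (adjusted p 0.0554 to 0.132). Xrcc6, for the Ku70 subunit, was at a log2 fold change of 0.23, Lig4, the ligase of the pathway, at -0.35, and Xrcc4, its cofactor, at -0.00, and none of the 3 passed.

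Of the 3 translesion polymerase genes, Polk fell and Polh and Poli did not pass. Polk was at 48.6, 35.5 and 40.6 CPM in DMSO and at 29.8, 23.6 and 27.5 CPM in BPAP. The groups did not overlap, and it fell 1.54-fold (log2 fold change -0.62, SE 0.14, adjusted p = 0.00825, and -0.47 with the trend removed). Polh, which copies past ultraviolet lesions, had a log2 fold change of -0.09, and Poli of -0.12.

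None of the 5 genes of PARP signalling and single-strand break repair that the name rule matches passed the test. Further genes of base excision and single-strand break repair are listed below. Of 18 tested, 4 fell and 4 rose, beside 15.5% and 16.2% of all genes tested. Parp1, the main sensor of nicks, was the repair gene with the most counts, at 454.6, 523.2 and 504.3 CPM in DMSO and at 410.6, 415.1 and 444.0 CPM in BPAP. The groups did not overlap, and its log2 fold change was -0.22 (adjusted p = 0.0721), passing without DMSO 1 (-0.30, adjusted p = 0.0321). The scaffold gene Xrcc1 was at -0.32 (adjusted p = 0.0724), and passed without BPAP 2 (-0.45, adjusted p = 0.0125). Lig3, the ligase bound to XRCC1, was at -0.29 (adjusted p = 0.0677), Parp2 at -0.22 and Parp3 at 0.02.

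Among the mismatch repair genes and their meiotic homologues, Msh5 and Msh6 fell and Mlh3 rose. Msh5, a MutS homologue known for its role in meiotic crossing over, was at 14.4, 15.4 and 12.7 CPM in DMSO and at 8.71, 6.32 and 7.96 CPM in BPAP. It fell 1.85-fold without overlap (log2 fold change -0.88, SE 0.16, adjusted p = 0.00355; -0.85 with the trend removed). Its partner gene in meiosis, Msh4, had no count in any library.

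Msh6, which acts in mispair recognition, was at 91.0, 95.8 and 96.6 CPM in DMSO and at 73.8, 84.5 and 75.4 CPM in BPAP. It fell 1.21-fold (log2 fold change -0.28, SE 0.09, adjusted p = 0.0386; -0.33 with the trend removed, adjusted p = 0.0177). Its adjusted p was 0.116 without DMSO 2, 0.112 without DMSO 3, 0.13 without BPAP 1, 0.105 without BPAP 3 and 0.0529 under upper quartile scaling. Mlh3, a MutL homologue, was at 18.7, 15.8 and 21.5 CPM in DMSO and at 26.9, 22.8 and 24.4 CPM in BPAP. It rose 1.32-fold (log2 0.40, SE 0.14, adjusted p = 0.0446; 0.57 with the trend removed, adjusted p = 0.0106), but its adjusted p was 0.117 without DMSO 1, 0.166 without DMSO 2, 0.134 without BPAP 1 and 0.0809 without BPAP 3. Msh3 (log2 fold change -0.41) did not pass, but passed without BPAP 1 (-0.64, adjusted p = 0.0158). With the trend removed Msh3 was at -0.17 (adjusted p = 0.492). The symbol rule also took in Rad54l2, an ATPase known as a cofactor of steroid receptors, and Xrcc6bp1, known as a mitochondrial protease, which had log2 fold changes of -0.04 and -0.07 and did not pass.

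Per kilobase of merged exon, Parp1 was by far the most abundant of the tested repair genes in DMSO, at 93.3 CPM per kilobase, above 96.9% of all genes tested. Msh6 followed at 21.7, then Mre11a at 13.7 and Rad50 at 13.6, which did not differ beyond their spread, and Fancc was lowest at 0.66. The median of the repair genes was 3.70 CPM per kilobase, beside 6.93 for all genes tested. The level in DMSO and the log2 fold change had a Spearman correlation of 0.12 across the 55 genes, a description over genes that share the same 6 libraries.

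The changes followed length within the group. The genes that fell had a median merged exon length of 7597 bases, beside 4644.5 bases for the tested genes that did not fall and 4296 bases for all genes tested. Of the 18 shortest genes, 1691 to 4476 bases, 2 fell and 1 rose, at a median log2 fold change of 0.01. In the middle group of 19, 8 fell (median -0.53), and of the 18 longest, 7454 to 23629 bases, 13 fell and 1 rose (median -0.72). Across the 55 genes the Spearman correlation of log2 fold change with exon length was -0.55, beside -0.40 over all genes. It was -0.30 for the repair genes and 0.05 for all genes once the trend had been removed. Coding length kept a correlation of -0.39 in the repair genes and -0.25 in all genes after that step. With coding length removed as well, 15 genes fell, beside 10.6% of all genes, all of them among the 23, and the median was -0.23. The part of length in these changes was not tested further.

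**Figure D3:**
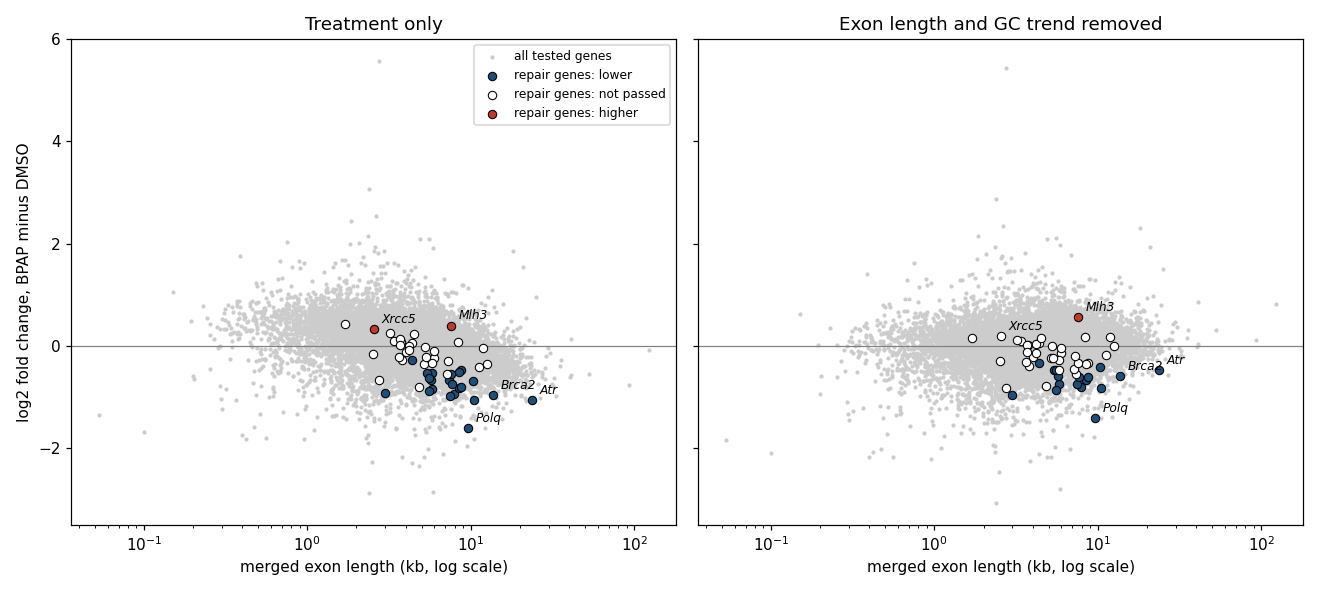
Log2 fold change, BPAP minus DMSO, against merged exon length in kilobases on a log axis, with 52 repair genes as outlined points (blue lower, white not passed, red higher) over all tested genes in grey, with treatment only on the left and the trend removed on the right. With treatment only, the 18 longest of all 55 tested repair genes have a median log2 fold change of -0.72 and the 18 shortest one of 0.01.

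The 3 BPAP libraries were not equally low. Over the 23 genes that fell, the median log2 difference from the DMSO mean was -0.70 in BPAP 1, -1.09 in BPAP 2 and -0.60 in BPAP 3. BPAP 2 was the lowest of the 3 for 20 of the 23 (87.0%), beside 69.0% of the 1814 genes that fell overall and 40.4% of all genes tested. Without BPAP 2, 21 repair genes fell. The exons of 20 of the 57 genes overlap those of another gene, with which reads could be shared. For overlaps on the opposite strand this depends on the strand setting, which is not given. The overlap covered more than 10% of the exon bases, with a gene that had counts, for 8 of the 20 genes, whose values are uncertain. On the same strand Rad54b shares 35.8% with Fsbp and Atrip 16.0% with Trex1. On the opposite strand Lig3 shares 25.1% with Rffl, Fanci 16.0% with Polg, Rad54l 15.4% with Lrrc41, Fancf 15.0% with Gas2, Fancl 13.7% with Vrk2 and Fanca 10.5% with Zfp276.

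Other repair genes, from lists of the same routes that the name rule does not match, also fell more often than they rose. Of 121 tested, 34 fell (28.1%) and 13 rose (10.7%), beside 15.5% and 16.2% of all genes tested, at a median log2 fold change of -0.09. With the trend removed 27 fell (22.3%) and 8 rose (6.61%), beside 11.2% and 11.9% of all genes. Bracketed pairs give the log2 fold change and then its value with the trend removed. In the damage signalling list 8 of 17 fell and none rose, among them Topbp1, the activator of ATR (-0.74, then -0.49), Trp53bp1 (-0.60, then -0.30) and the checkpoint mediator Clspn (-0.92, then -0.83). In translesion synthesis and tolerance 6 of 13 fell and 1 rose, among them Zranb3 (-0.98, then -0.80), Rev3l, the catalytic subunit of polymerase zeta (-0.75, then -0.39), and Shprh (-0.68, then -0.28). Homologous recombination had 6 of 25 lower, such as Bod1l (-0.90, then -0.62) and the resolvase gene Gen1 (-0.87, then -0.60). There 4 rose, such as Shfm1, a BRCA2 partner (0.54, then 0.52), a share no larger than the 16.2% of all genes tested. Crosslink repair had 5 of 13 lower, among them Ube2t, the conjugating enzyme for FANCD2 (-0.64, then -0.59), and 1 higher. End joining had 2 of 8 lower, Prkdc (-0.82, then -0.48) and Dclre1c (-0.53, then -0.19), and Dclre1c did not pass with the trend removed (adjusted p = 0.268).

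In base excision and single-strand break repair 4 of 18 fell and 4 rose, beside 15.5% and 16.2% of all genes tested. Neil3 was at -1.19 and Lig1 at -0.63 (-1.05 and -0.70 with the trend removed). Nucleotide excision repair had a median log2 fold change of 0.06. There 3 of 21 fell, a share no larger than the 15.5% of all genes tested, and 1 rose. Ercc5 fell at -0.46 and Mms19 at -0.36, and Gtf2h5 rose at 0.43. With the trend removed these were -0.39, -0.17 and 0.44, and Mms19 did not pass (adjusted p = 0.139). None of 3 further mismatch repair genes passed. Of 3 direct reversal genes, Mgmt rose (0.70) and Alkbh2 rose (0.64), but neither passed with the trend removed (adjusted p = 0.0515 and 0.244).

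Proliferation genes moved beside the repair genes. Of 21 tested, 13 fell (61.9%) and none rose, beside 15.5% and 16.2% of all genes tested, and the median log2 fold change was -0.55. With the trend removed 14 fell (66.7%), beside 11.2% of all genes. The summed level of the list was 2708 to 2866 CPM in DMSO and 1273 to 1780 CPM in BPAP, so the groups did not overlap. Mki67 (mean 1081 CPM in DMSO and 408 CPM in BPAP) and Top2a (545 and 280 CPM) weigh most in that sum, which does not describe each gene. Mki67 was at -1.40, Rrm2, a subunit of ribonucleotide reductase, at -1.07 and Mcm4, of the replicative helicase, at -0.72 (-1.20, -1.21 and -0.79 with the trend removed). Other genes of the list did not pass, such as Pcna at 0.04, Mcm2 at 0.01, Cdk1 at 0.05 and Ccnb1 at -0.03, which were picked with their values known. Of 16 tested genes in a list of p53 targets, which also holds Trp53 itself, 7 rose and none fell, beside 16.2% and 15.5% of all genes. Gadd45a was at 1.02, Bax at 0.66 and Bbc3 at 0.61, while Cdkn1a (-0.06) and Mdm2 (-0.12), also picked with their values known, did not pass. With the trend removed 5 rose and 1 fell, beside 11.9% and 11.2% of all genes. The 3 named first were then at 0.73, 0.35 and 0.36, where Bax did not pass (adjusted p = 0.0614). The p53 list summed to 1197 to 1215 CPM in DMSO and 1277 to 1421 CPM in BPAP. The part of proliferation or of p53 in the changes of the repair genes was not tested.

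**Figure D4:**
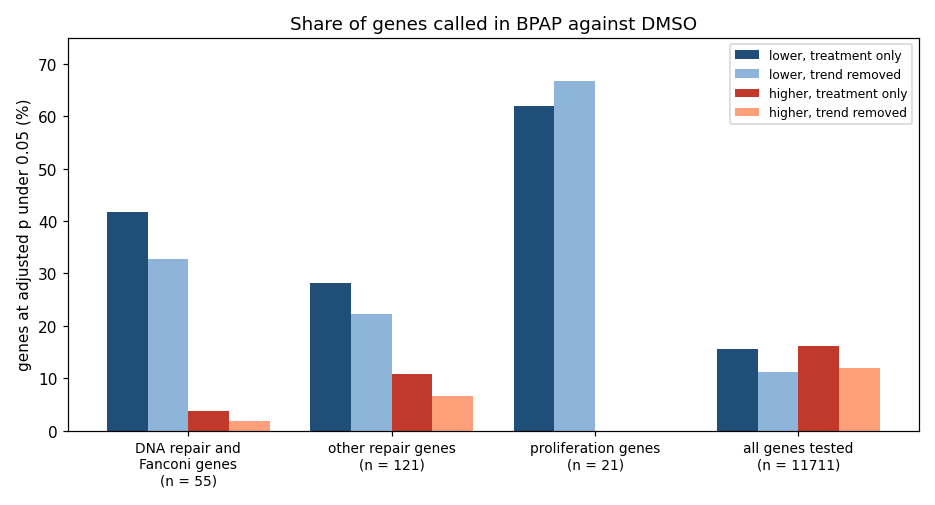
Share of tested genes that fell and that rose in edgeR's quasi-likelihood test, in percent, for the repair genes, the other repair lists, the proliferation list and all genes tested; pale bars are with the trend removed. The repair genes stand at 41.8% lower with treatment only, between the proliferation list at 61.9% and the other repair lists at 28.1%, with all genes at 15.5%.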

How the data were processed

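RNA was measured in 6 libraries of RAW 264.7 cells, grouped by their treatment label. The authors deposited 1 table of raw counts, whole numbers per gene and library, and FPKM values. Per the submitters' processing notes, HISAT2 2.0.4, StringTie 1.3.3b and edgeR were used with GRCm38, without a stated role or order. The sources used here do not give the annotation release, strand setting, poly(A) selection or treatment of multi-mapping reads. Per the labels' protocols, RNA was extracted with TRIzol.

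The genes and lists were chosen with earlier results of these data known. Counts were tested with edgeR 4.0.16 in R 4.3.3: default expression filter, TMM scaling, quasi-likelihood test with robust dispersions, treatment as the only term, 2-sided p-values, Benjamini-Hochberg adjustment. Standard errors were taken from each fold change and its F statistic. The procedure was tested on simulated data. Exon length, coding length and GC content come from GENCODE M21, and promoters from RefSeq. Values per library are given for every gene past the threshold and for up to 3 genes of each role, and of each other list up to 3 genes with the smallest p. Alternatives were other normalisations, no filter, DESeq2 1.42.0, limma 3.58.1 (voom and trend), removal of length and GC trends, the length implied by the deposited FPKM, a replicate block and each library left out. No library pair agreed within sampling noise. Some genes of the lists are counted in the totals but are not reported singly here.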

Additional observations from a re-analysis of the deposited data

How the results depend on the processing

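Of the 25 repair genes past the threshold, 15 kept their call in all 17 alternatives, 10 lost it in at least 1 and none reversed. The number that fell, 23, was 17 to 22 with 1 library left out (lowest without DMSO 2), 15 with coding length, exon length and GC removed, 18 with exon length and GC removed, 21 with the FPKM length, and 22 to 25 under the other normalisations, filters and tools. The number that rose, 2, was 0 to 1 with 1 library left out, 0 under DESeq2, limma-trend and the FPKM length, and 1 with no filter and with exon length and GC removed. The median log2 fold change of -0.35 was -0.25 under limma-trend and -0.23 with coding length removed, where Rad54l2 turned from -0.04 to 0.29. Other repair genes that fell, 34, were 19 with coding length removed and 22 to 29 with 1 library left out; those that rose, 13, were 8 with exon length and GC removed, 8 with the FPKM length, 6 with coding length removed and 4 to 9 with 1 library left out. Of all genes, 1901 rose and 1814 fell, against 1196 and 1140 with coding length removed; with 1 library left out 1244 to 1654 rose and 1235 to 1660 fell. The cause of these shifts was not tested. Same-numbered libraries correlated at 0.01 to 0.10 in their deviations from the group means, and differently numbered ones at -0.09 to 0.05. Each BPAP library correlated most with its same-numbered DMSO library, by a narrow margin for BPAP 2 and BPAP 3. The numbers were not taken to pair the libraries, but values this low cannot settle whether they do. With the replicate block 2149 genes rose and 2087 fell, and 26 repair genes fell and 2 rose; with the block and the exon length and GC trend removed these were 1530, 1463, 20 and 1. Depth limits the rarest genes, such as Fancf, with 25 to 30 counts in DMSO.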
